A study of Rattus norvegicus with 3 samples.

Results

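Imprinted genes are copied mainly from the chromosome inherited from 1 parent, and the 8 described here, Dlk1, Mest, Ndn, Plagl1, Snrpn, Peg3, Cdkn1c and Gnas, were chosen by name. Their members were all probe sets that the platform annotation gives to 1 of these genes alone, which gave 9 probe sets on 7 genes, of 31042 gene probe sets in all. Peg3 had no such probe set, so no level is given for it, and 2 probe sets shared by Snrpn and its overlapping gene Snurf were left out. A filter kept probe sets whose mean log2(intensity + 16) over the arrays was at or above the median of all gene probe sets. It kept 15521 in all and 8 of the 9 members. The single Snrpn probe set fell below it, so 6 of the 8 genes had a kept probe set in this adrenal RNA. In all, 14217 genes had a probe set of their own.

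The samples were labelled as adrenal medulla of rats (Rattus norvegicus), the inner part of the gland, and each gave total RNA for 1 oligonucleotide array. Each title also carries the phrase Multiple Organs, taken here as a project name, a reading that the labels do not settle. The groups were rats in the cold for 7 days (1 array) and rats in the cold for 1 day (arrays a and b). All 3 arrays come from cold-exposed rats, and no array from rats outside the cold was analysed here. The labels give no strain, sex, age, temperature or number of animals per array, and do not say whether arrays a and b come from separate animals, so their spread may be technical.

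Imprinting is set in the germ line by DNA methylation at control regions, and most imprinted genes lie in clusters that share 1 such region. Many act on growth. As a broad rule, paternally expressed genes favour growth of the embryo and maternally expressed ones restrain it, and many fall to low levels after birth while some endocrine tissues, the adrenal gland among them, keep them active. Dlk1, Mest, Ndn, Plagl1, Snrpn and Peg3 are expressed from the paternal copy and Cdkn1c from the maternal copy. Gnas is a complex locus whose alternative promoters give maternal, paternal and biallelic transcripts. The arrays measured total RNA of a gene and did not separate the parental copies.

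Array 1-day a stood apart from the other arrays, and this touches every value below. For beta-actin, the control probe set at the 3′ end over that at the 5′ end, a ratio that is higher when RNA is degraded or copied short, was 8.87 on the 7-day array, 231 on 1-day array a and 6.11 on 1-day array b. The median intensity of all probe sets was 675, 1583 and 593 in that order, although the 2% trimmed mean was about the same. Across gene probe sets, the Spearman correlation of the 7-day array was 0.68 with 1-day array a and 0.94 with 1-day array b, which describes the arrays only. Chromaffin cell markers (12 of 12 measured kept by the filter, 0 listed at 0) and adrenal cortex markers (9 of 11 kept, 0 listed at 0) were both bright, so the RNA labelled as medulla also held cortex transcripts. Of liver, skeletal muscle and fat markers, 2 of 6, 1 of 5 and 0 of 6 measured genes were kept.

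Promoter windows are shown for Dlk1, Mest, Ndn and Plagl1, the paternally expressed genes that were kept and that took the same order over the arrays. Each runs from 250 bases before to 50 bases after the annotated start, from RefSeq on build GRCr8, read on the strand of the gene. Capitals mark 3 motifs on either strand: the GC box GGGCGG, the hexamer TGCCGC that ZFP57, a protein that protects imprints, binds when methylated, and GCATGCGC, the core of the site of the factor NRF1. The motifs did not overlap in these windows.
Dlk1, chr6:134192347-134192646, plus strand: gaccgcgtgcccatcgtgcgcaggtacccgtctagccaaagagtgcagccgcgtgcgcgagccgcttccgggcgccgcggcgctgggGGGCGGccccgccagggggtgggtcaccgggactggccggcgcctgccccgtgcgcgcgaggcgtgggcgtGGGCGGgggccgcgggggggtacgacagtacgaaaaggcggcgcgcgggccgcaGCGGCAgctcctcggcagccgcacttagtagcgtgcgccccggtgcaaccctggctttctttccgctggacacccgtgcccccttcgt
Mest, chr4:60321564-60321863, plus strand: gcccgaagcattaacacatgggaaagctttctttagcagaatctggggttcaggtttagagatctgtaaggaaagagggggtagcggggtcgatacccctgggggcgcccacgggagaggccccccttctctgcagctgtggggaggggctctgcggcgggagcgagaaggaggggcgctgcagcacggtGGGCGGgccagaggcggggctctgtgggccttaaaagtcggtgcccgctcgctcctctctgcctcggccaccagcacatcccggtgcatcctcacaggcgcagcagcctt
Ndn, chr1:125260809-125261108, plus strand: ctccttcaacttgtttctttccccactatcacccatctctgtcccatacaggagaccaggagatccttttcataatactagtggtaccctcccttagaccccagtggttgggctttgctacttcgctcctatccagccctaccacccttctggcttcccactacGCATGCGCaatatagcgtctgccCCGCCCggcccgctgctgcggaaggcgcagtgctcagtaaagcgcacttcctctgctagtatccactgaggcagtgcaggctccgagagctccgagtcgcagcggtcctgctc
Plagl1, chr1:9297214-9297513, plus strand: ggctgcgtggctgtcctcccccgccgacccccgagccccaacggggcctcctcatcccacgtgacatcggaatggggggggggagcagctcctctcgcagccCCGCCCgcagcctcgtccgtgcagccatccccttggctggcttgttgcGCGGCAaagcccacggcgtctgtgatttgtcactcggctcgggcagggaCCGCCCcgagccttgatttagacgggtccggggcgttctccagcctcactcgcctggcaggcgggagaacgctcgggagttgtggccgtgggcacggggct
Dlk1 held 45 CpG dinucleotides in its window, Plagl1 29, Mest 18 and Ndn 14, against a median of 7 over the 33469 windows of the table. GC boxes were found in each of the 4 windows, 2 in Dlk1, 2 in Plagl1 and 1 each in Mest and Ndn, and in 33.1% of all windows. The ZFP57 hexamer was found once in Dlk1 and once in Plagl1, and in 11.7% of all windows. The NRF1 core was found in Ndn alone of these windows, and in 2.47% of all. A match is a run of letters and not a proven site, and the arrays do not measure methylation or binding there. Of the 8 genes, 7 had a window in the table and Gnas had 3. In the windows not printed, Peg3 and Snrpn held 0 GC boxes and the Gnas windows 1, 0 and 4, while Snrpn held 2 ZFP57 hexamers and the others 0. Their CpG counts were 16 in Peg3, 11 in Snrpn and 18, 12 and 41 in the Gnas windows, and the NRF1 core was in 0 of these.

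The paternally expressed genes that passed the filter read highest on 1-day array b, next on the 7-day array and lowest on 1-day array a. This held for Dlk1, Mest, Ndn and Plagl1, so the 7-day array lay inside the span of the 1-day arrays for each of them. Dlk1, which encodes a transmembrane protein related to the Notch ligands and was also named ZOG in the rat for its presence in the zona glomerulosa of the cortex, had an intensity of 31083 on the 7-day array, against 14222 on 1-day array a and 43205 on 1-day array b. Its log2 level was 14.92, against 13.80 and 15.40. The 7-day value was 1.13 above 1-day array a and 0.47 below 1-day array b on that scale, and the gap between the 1-day arrays, 1.60, was wider than either.

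Mest, also called Peg1, encodes an enzyme-like protein of the alpha/beta hydrolase fold and is a marker of mesoderm in the embryo. It had an intensity of 2380 on the 7-day array, against 376 on 1-day array a and 4469 on 1-day array b. On 1-day array a it was dimmer than most probe sets, with 20.0% of gene probe sets below it, while 73.3% lay below it on the 7-day array and 82.7% on 1-day array b. The log2 level at 7 days was 2.61 above array a and lower than array b, at -0.90. Of the 15521 kept probe sets, 0.863% lay further below array b on the 7-day array than Mest did. The gap of 3.52 between the 1-day arrays exceeded that of 97.8% of kept probe sets, so the direction of the 7-day value depends on which 1-day array is used.

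Ndn encodes necdin, a MAGE family protein that restrains growth and is found in neurons that no longer divide. Its intensity was 11525 on the 7-day array, against 3570 on 1-day array a and 14048 on 1-day array b. The 7-day array thus read close to array b (-0.29 log2) and well above array a (1.69). Plagl1, a zinc finger transcription factor also called Zac1 or Lot1 that can arrest the cell cycle and in the mouse regulates other imprinted genes, had 8196 on the 7-day array, against 2044 on 1-day array a and 11306 on 1-day array b. Its log2 differences were 1.99 from array a and -0.46 from array b.

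**Figure D1:**
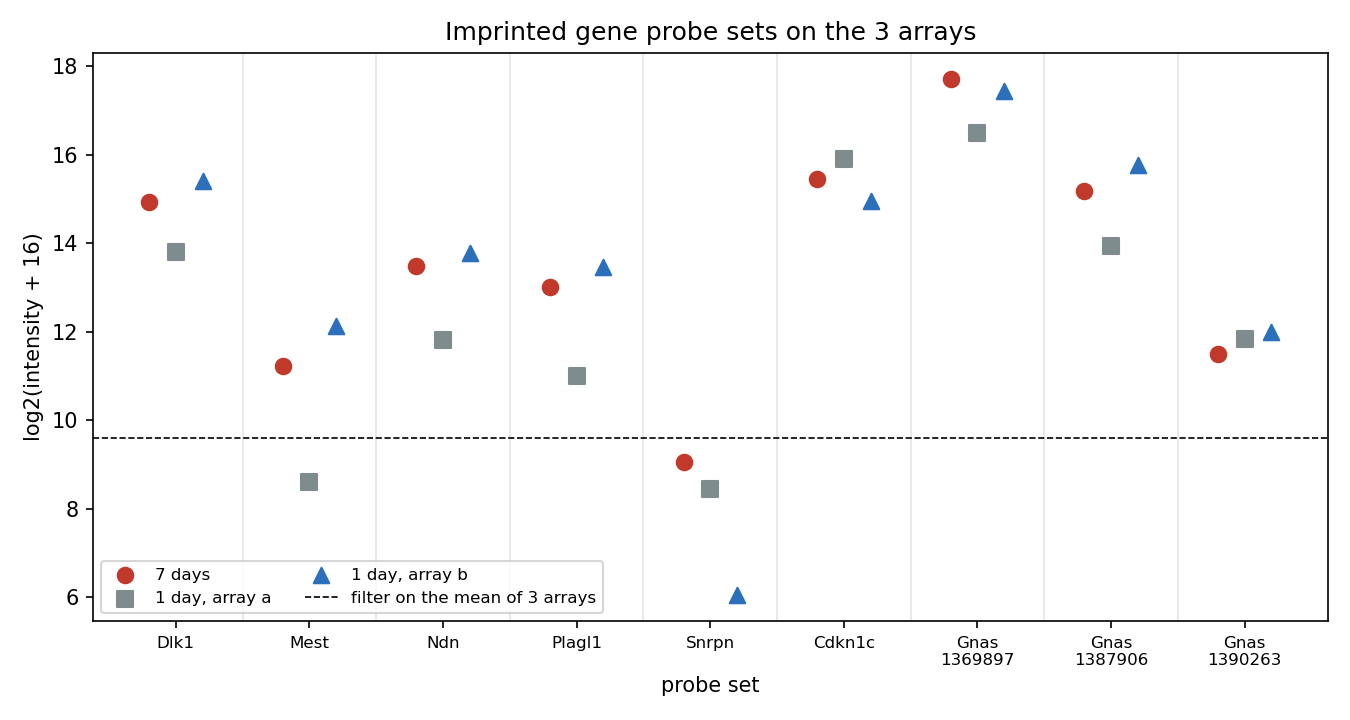
Level of each of the 9 member probe sets, as log2(intensity + 16) on the vertical axis, with 1 point per array and the probe sets along the horizontal axis. Dlk1, Mest, Ndn and Plagl1 show array b on top and array a lowest, while Cdkn1c shows the opposite order. The dashed line is the filter, which applies to the mean of the 3 arrays.

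Snrpn encodes SmN, a protein of the spliceosome that stands in for SmB in brain. Its own probe set had an intensity of 519 on the 7-day array, against 333 on 1-day array a and 50 on 1-day array b. Each value lay under the median intensity of its array. The log2 difference of 3.02 from array b arose at this dim level and was 0.61 against array a. Snrpb, the gene of SmB and a close relative of Snrpn whose transcripts similar probes may share, had 22609 on the 7-day array, against 10881 on 1-day array a and 19749 on 1-day array b, or 0.20 log2 above array b.

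Cdkn1c, the maternally expressed member, encodes p57Kip2, an inhibitor of cyclin-dependent kinases that holds cells out of division. It took the reverse order, with an intensity of 44945 on the 7-day array, against 61172 on 1-day array a and 32036 on 1-day array b. As deposited, the 7-day value lay between the 1-day arrays, 0.49 above array b and lower than array a, at -0.44. The reverse order depended on the scaling. Median centring put Cdkn1c at 7 days 0.77 log2 above array a and 0.31 above array b, so array a became its lowest. Dlk1, Mest, Ndn and Plagl1 kept their order under that scaling, with array a lowest as well. Quantile normalization left Cdkn1c between the 1-day arrays, at -0.84 from array a and 0.49 from array b. Beside Cdkn1c, adrenal cortex markers read higher on the 7-day array than on 1-day array b in 9 of 9 kept genes. Their median was 0.38 and their range 0.29 to 0.57 on the log2 scale. Of all kept probe sets, 50.0% read lower than array b. The summed intensity of the 11 cortex markers measured was 1424030 on the 7-day array, against 2011090 on 1-day array a and 1078550 on 1-day array b. Gene by gene, 4 of the 9 kept cortex markers took the order of Cdkn1c, which 27.6% of all kept probe sets took. The other 5, Cyp11b1, Scarb1, Nr5a1, Mrap and Cyp11a1, read above both 1-day arrays at 7 days, against 22.4% of kept probe sets. Chromaffin markers were higher in 6 and lower in 6 of 12 against array b (median 0.09), with sums of 1324180, 2492080 and 1161320. Of those 12, 4 took the order of Cdkn1c, 4 the reverse, 2 read above both 1-day arrays and 2 below both. The shares over all kept probe sets were 27.6%, 24.7%, 22.4% and 25.3% in that order. In RNA of whole tissue, more cells of a type and more RNA per cell cannot be told apart, and the part of cortex RNA in the Cdkn1c values was not tested.

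The other Cip/Kip genes were measured as well. Cdkn1b, which encodes p27Kip1, had 5386 on the 7-day array, against 4104 and 6470 on 1-day arrays a and b, on its brighter probe set. Its second probe set, below the filter, had 251, against 2567 and 416. Neither followed the order of Cdkn1c on all arrays. Cdkn1a, which encodes p21Cip1, had 3365 at 7 days, against 6495 and 4008, so it was highest on array a, as Cdkn1c was, but read below both at 7 days.

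Gnas encodes the alpha subunit of Gs, the G protein that couples receptors such as the ACTH receptor to adenylyl cyclase, and its other promoters give the large variant XL alpha s and NESP55, a granin-like protein of chromaffin granules. Its 3 probe sets did not move together. The brightest, 1369897_s_at, had an intensity of 215762 on the 7-day array, against 92477 on 1-day array a and 179405 on 1-day array b, and so read above both. The next, 1387906_a_at, had 37334 at 7 days, against 15639 and 55734, and lay between the 1-day arrays. The dimmest, 1390263_at, had 2893 at 7 days, against 3623 and 4097, and read below both. Against 1-day array b the log2 differences were 0.27, -0.58 and -0.50. The files do not say which Gnas transcripts each probe set detects, so the probe sets are given separately, and quantile normalization took the first to -0.02.

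Gnas is also a G protein gene, and 3 related subunit genes on the list of partners were kept. Gnai2, of the inhibitory protein Gi, had 11023 on the 7-day array, against 25263 on 1-day array a and 14681 on 1-day array b, below both. Gng2, a gamma subunit, had 1024, against 1245 and 2305, also below both, at -1.16 log2 from array b and -0.28 from array a. Gnb1, a beta subunit, had 22401, against 9199 and 28489, and lay between them.

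**Figure D2:**
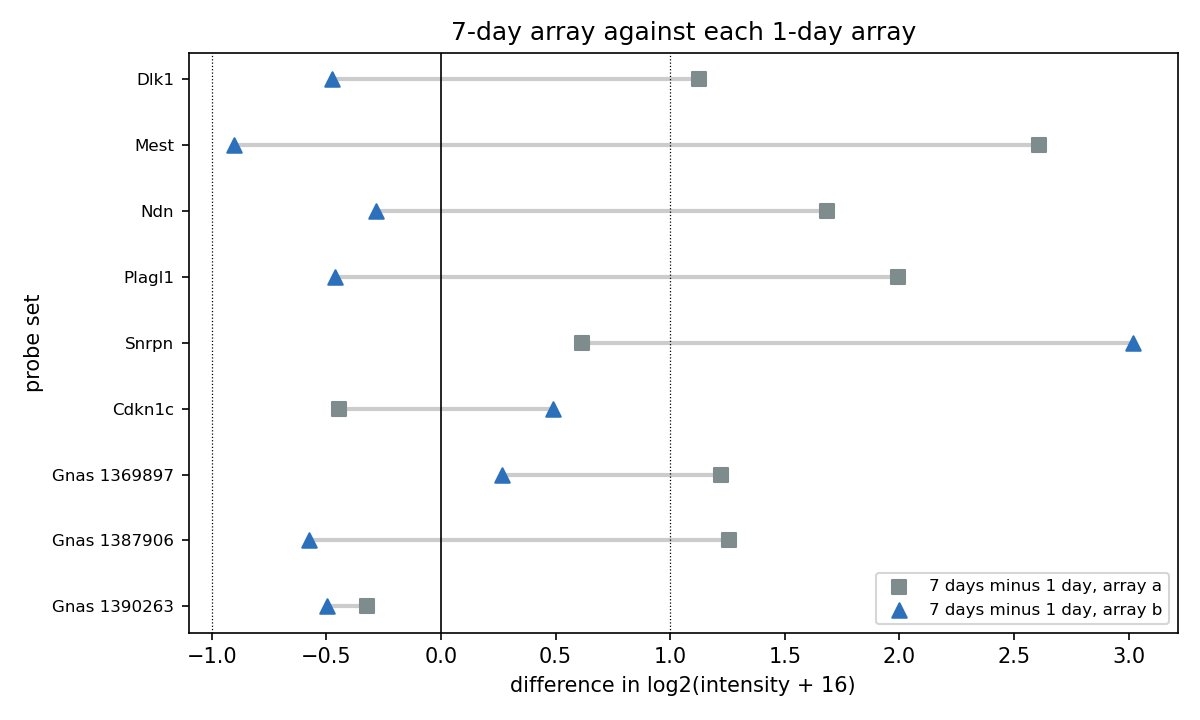
Difference of the 7-day array from 1-day array a (squares) and from 1-day array b (triangles) for each member probe set, in log2(intensity + 16), with dotted lines at 2-fold. The squares of Dlk1, Mest, Ndn, Plagl1 and 2 Gnas probe sets lie past 1 while their triangles lie between -0.90 and 0.27. The wide bar of Snrpn belongs to a probe set below the filter.

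Setting 7 days of cold against 1 day asks what differs with the length of exposure. In limma with Benjamini-Hochberg adjustment over all 15521 kept probe sets, 0 of the 8 kept members had an adjusted p under 0.05, against 0% of all kept probe sets. At an unadjusted p under 0.05 the counts were 0 members and 70 probe sets in all, and the lowest member p in limma was 0.408, for Plagl1. The estimates ran from -0.41 ± 0.90 for Gnas 1390263_at to 0.85 ± 1.12 for Mest (log2, 7 days minus the mean of the 1-day arrays, ± SE from limma's intensity trend). Intervals this wide allow changes of several fold either way, so a p that misses the threshold does not show equal levels. The 7-day array is a single one and was assumed to vary like the 1-day pair.

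By size, the 7-day array was 2-fold or more beyond both 1-day arrays, higher or lower, for 0 of the 8 kept members, against 0.0387% and 0.341% of all kept probe sets. The 7-day array read above both for 1 member, below both for 1 and between them for 6, against 22.4%, 25.3% and 52.3% of kept probe sets. For 5 of the 8 the order was array b, then 7 days, then array a, which 24.7% of kept probe sets took, and for 1 it was the reverse, which 27.6% took.

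Against each 1-day array alone there is no test. The 8 kept members counted here are probe sets, and 3 of them are of Gnas, so that gene weighs more than the others. At least 2-fold above 1-day array a were 6 of the 8 kept members, against 19.7% of kept probe sets, and 0 were that far below it, against 23.1%. These shares are not matched for intensity, and most members were bright. With a trend with intensity taken off each array, Dlk1, Gnas 1369897_s_at and Gnas 1387906_a_at read 0.46, 0.35 and 0.56 log2 above array a. Mest, Ndn and Plagl1 stayed past 2-fold, at 3.08, 1.25 and 1.69, and Cdkn1c reached -1.18. At least 2-fold apart from 1-day array b were 0 members, against 1.84% higher and 0.561% lower among kept probe sets. The median difference of the 8 was 1.24 from array a and -0.47 from array b, beside -0.10 and 0.00 over all kept probe sets. With the trend with intensity taken off, the median of the 8 was 0.51 from array a and -0.45 from array b. Against array b, 6 of the 8 read lower, against 50.0% of kept probe sets, and against array a 2 of the 8 did, against 52.9%. The markers of fibroblasts and the capsule also read lower than array b on the 7-day array in 5 of 5 kept genes (median -0.42). Their summed intensity over the 8 measured was 130423 at 7 days, against 38729 on 1-day array a and 145497 on 1-day array b. Dcn, which is also on the list of other imprinted genes below, made up 99376, 19993 and 103757 of these sums. The markers of macrophages and lymphocytes read lower in 6 of 7 (median -0.46), with sums of 16877, 12316 and 21229. Other lists did not: endothelial markers read lower than array b in 2 of 8 kept genes (median 0.07). Schwann or sustentacular cell markers did so in 2 of 5 (median 0.04). The part of such cells in the member values was not tested.

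**Figure D3:**
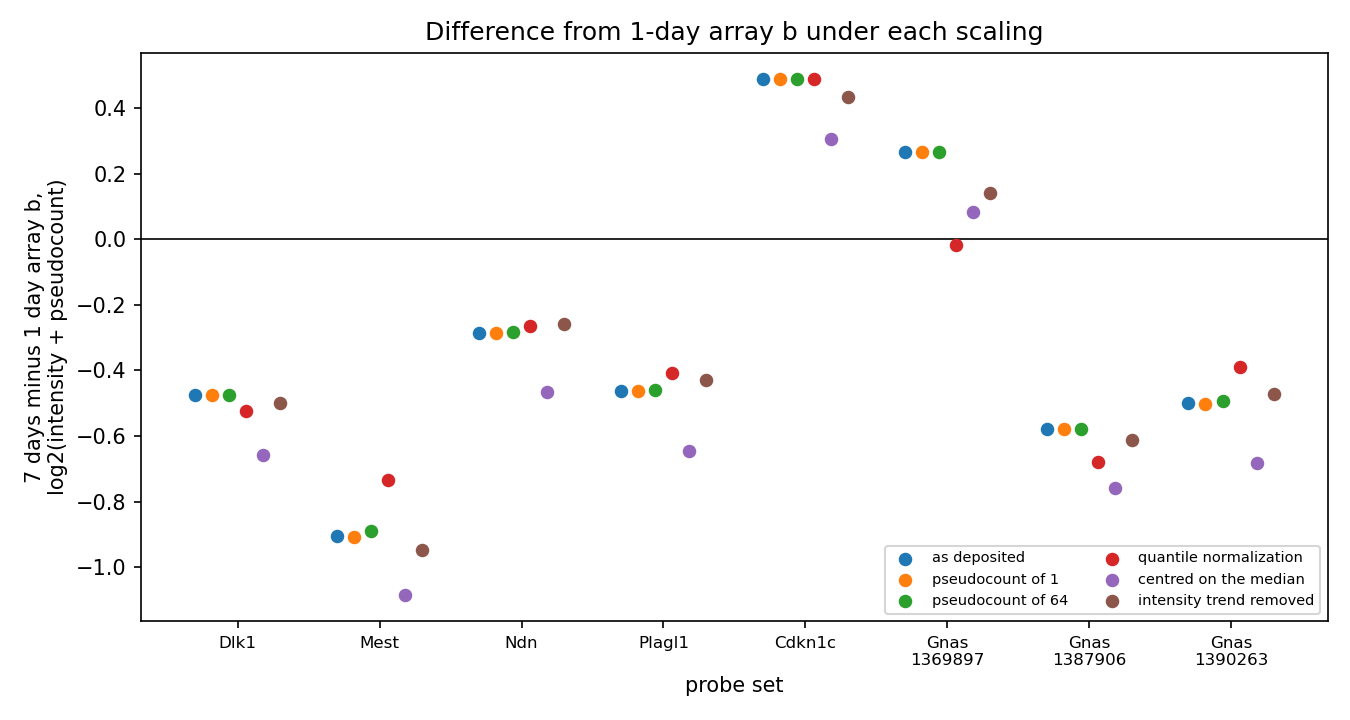
Difference of the 7-day array from 1-day array b for the 8 kept member probe sets, in log2 units on the vertical axis, with 1 point for each way of scaling the arrays. Dlk1, Mest, Ndn, Plagl1 and the dimmer Gnas probe sets stay below 0 and Cdkn1c above 0 under each scaling drawn, while Gnas 1369897 reaches -0.02 with quantile normalization.

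Of a list of 57 other imprinted genes, 44 were measured and 27 had a kept probe set. In limma 0 of the 27 passed. The 7-day array read above both 1-day arrays for 4, below both for 6 and between them for 17, against 22.4%, 25.3% and 52.3% of kept probe sets. Against 1-day array b, 19 of 27 read lower and 8 higher, with a median of -0.11 log2, where 50.0% of kept probe sets read lower and their median was 0.00. Against 1-day array a, 10 of 27 read lower and 17 higher, with a median of 0.34, where 52.9% of kept probe sets read lower and their median was -0.10. These differences in share were not tested, and each listed gene stands by its brightest probe set alone.

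The 4 kept genes outside both 1-day arrays with the largest distance from the nearer array were Rasgrf1, Usp29, Gatm and Cd81. Rasgrf1, a paternally expressed exchange factor for Ras in the mouse, had 317 on the 7-day array, against 3033 on 1-day array a and 484 on 1-day array b. Usp29, which lies next to Peg3, had 643, against 3122 and 798. Gatm, an enzyme of creatine synthesis, had 678, against 1155 and 816. Cd81, a tetraspanin of the cell surface, had 110415, against 28239 and 91516, and was the one that read higher. These distances from the nearer array were -0.59, -0.30, -0.26 and 0.27 log2, each under 2-fold. Among genes below the filter, Calcr, Dio3 and Ascl2 lay farther from the nearer array, at -2.86, -1.70 and -0.69, with 7-day intensities of 19, 112 and 128, under the median of the array.

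Igf2, the fetal growth factor gene, was dim on each of its 4 probe sets, all of them below the filter. The one with the highest mean had 249 on the 7-day array, against 341 on 1-day array a and 466 on 1-day array b. H19, the noncoding RNA beside Igf2, had 1213 at 7 days, against 2853 and 721, and lay between the 1-day arrays. Grb10, an adaptor that restrains insulin and growth factor signalling, had 30544 at 7 days, against 4291 and 30842, on its brightest probe set. A second Grb10 probe set had 2862, against 6715 and 3696, and the dimmest 849, against 1387 and 751. The 1-day arrays thus parted in opposite directions on probe sets of Grb10, while array b read above array a on each of the 3 Gnas probe sets.

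**Figure D4:**
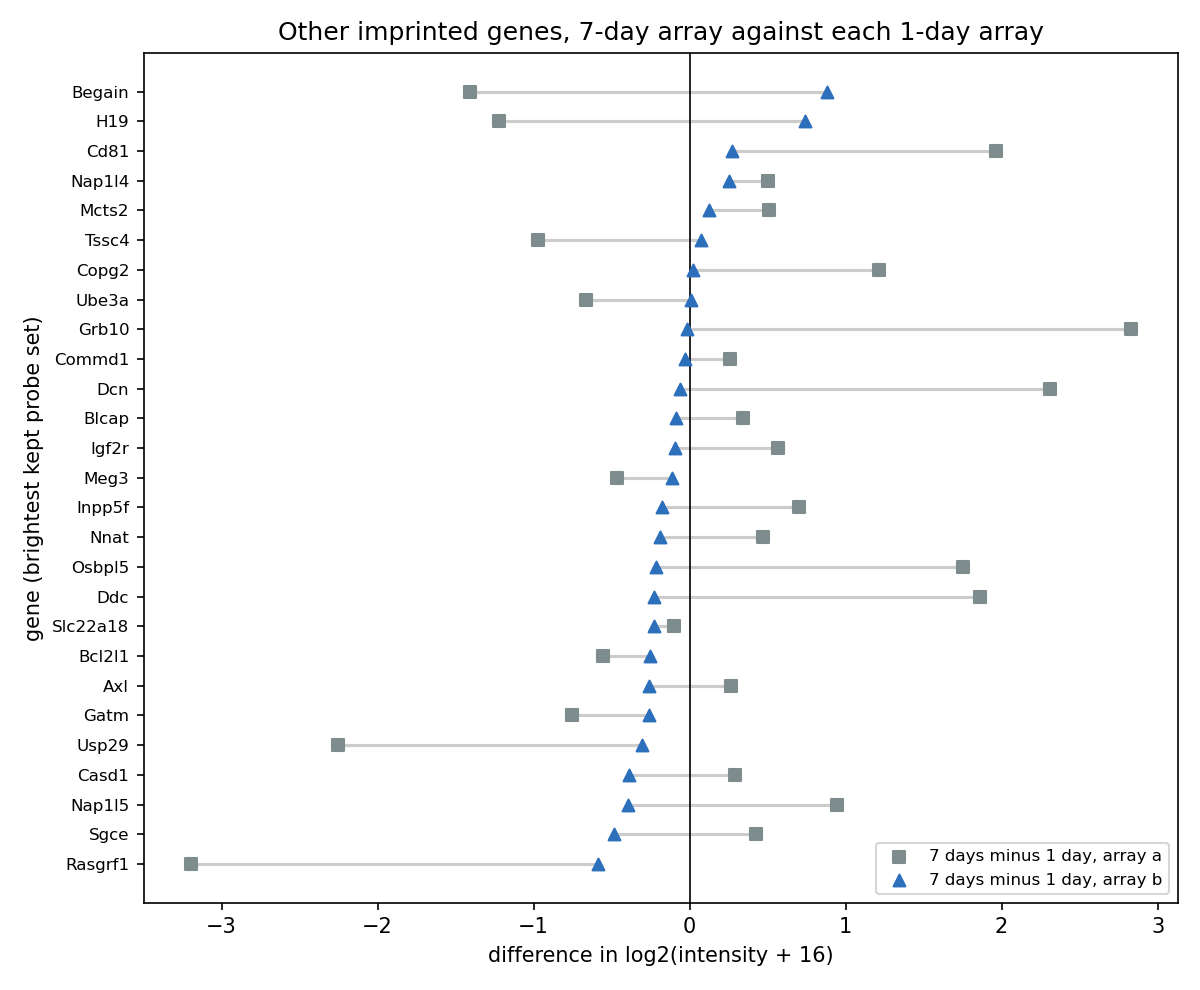
Difference of the 7-day array from 1-day array a (squares) and 1-day array b (triangles), in log2(intensity + 16), for the 27 other imprinted genes with a kept probe set, ordered by the difference from array b. The triangles lie between -0.59 and 0.88, with 19 of 27 below 0, and the squares spread from -3.20 to 2.83.

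Of the kept imprinted genes near a measured member, only Tssc4 and H19, both near Cdkn1c, took its order over the arrays. The others described below took another order. On GRCr8, used here only for the order of genes, Dlk1 and the noncoding RNA gene Meg3 lie in the same cluster, where in the mouse the paternal copy gives Dlk1 and the maternal copy Meg3. Meg3 had 55431 on the 7-day array, against 76376 on 1-day array a and 59895 on 1-day array b, while a second Meg3 probe set had 48014, against 64527 and 52804. Both read below both 1-day arrays, at -0.11 and -0.14 log2 from array b, and both were highest on array a, where Dlk1 was lowest. Begain, on the other side of Dlk1 with 0 protein-coding genes between, had 1508 at 7 days, against 4028 and 813.

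Copg2, a coatomer subunit gene next to Mest with 0 protein-coding genes between, had 9475 on the 7-day array, against 4067 on 1-day array a and 9336 on 1-day array b. It differed from array b by 0.02 log2, where Mest differed by -0.90. In the cluster of Snrpn and Ndn, with 3 protein-coding genes between them, Ube3a, a ubiquitin ligase gene expressed from the maternal copy in neurons, had 10945 at 7 days, against 17350 and 10852. Magel2, next to Ndn, had no probe set.

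Around Cdkn1c, 12 genes of the list lay within 10 protein-coding genes and all had a probe set. The filter kept Slc22a18, Nap1l4, Tssc4, Cd81, Osbpl5 and H19. Slc22a18, a transporter gene next to Cdkn1c, had 1667 at 7 days, against 1783 on array a and 1957 on array b. Nap1l4, a histone chaperone gene, had 8844, against 6234 and 7404. Tssc4 and H19 took the order of Cdkn1c, with array a highest, an order that 27.6% of all kept probe sets took. Cd81 and Osbpl5 had array a lowest. Phlda2, a maternally expressed gene of the placenta, was dim at 77, 93 and 135 in the same order of arrays.

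A list of 30 family and pathway partners of the members had 28 measured genes and 21 with a kept probe set, of which 0 passed in limma. The 7-day array read above both 1-day arrays for 5, below both for 6 and between for 10, close to the shares over all kept probe sets. The median difference was -0.04 from array b and 0.26 from array a. Notch1, a receptor of the pathway that Dlk1 modulates, had 2893 on the 7-day array, against 2007 on 1-day array a and 2359 on 1-day array b. Plagl2, a paralog of Plagl1, had 1275, against 1575 and 1601. Its 1-day arrays agreed within 0.02 log2, unlike those of Plagl1.

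The genes closest to each member over the arrays were found by the Euclidean distance between the 3 centred log2 values, among 9291 other genes. For Dlk1 these were Nab2 and Stard13 (distances 0.03 and 0.04), for Ndn Suox and Stip1 (0.009 and 0.010), and for Plagl1 Slco3a1 and Tmem107 (0.03 and 0.04). For Mest they were Eng and Oat, at 0.12 and 0.19, and 0 genes lay within 0.1. Cdkn1c was closest to Atg2a and Micall2 (0.008 and 0.03). The Gnas probe sets, from bright to dim, were closest to Ahcyl1 and Chka (0.01 and 0.01), Fads3 and Ubp1 (0.03 and 0.05), and Cav1 and Pals2 (0.007 and 0.007). Within 0.1 lay 33 genes for Dlk1, 50 for Ndn, 10 for Plagl1 and 43 for Cdkn1c. The Gnas probe sets had 70, 12 and 64 genes within 0.1, from bright to dim. The likeness describes 3 arrays only.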

How the data were processed

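Total RNA of 3 samples was hybridised to 1-colour oligonucleotide arrays, and groups came from the sample titles. The values used are the deposited linear intensities, 1 for each probe set on each array, already summarised to probe sets by the authors. A 2% trimmed mean of 2501 came out for each array, so a common scaling target is read from the values. The scaling software is not given in the sources used here. Such scaling hides differences in total RNA.

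Intensities were kept as scaled and turned into log2(intensity + 16), which shrinks differences at dim levels. Control probe sets (57) were removed, and 15521 of 31042 gene probe sets were kept by mean log2 at or above the median (9.60). The platform annotation gave 20826 probe sets 1 symbol, 436 several and 9780 none. Through Entrez identifiers, 20764 symbols were matched to RefSeq on GRCr8 and took the symbol given there, whether or not it differed. With these symbols, 7 of the 8 members matched a probe set. A listed gene was represented by its brightest probe set.

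Arrays were tested with limma (lmFit, eBayes with trend = TRUE), two-sided, on 1 residual degree of freedom from the 1-day pair. With infinite prior degrees of freedom, each SE is the spread fitted at that intensity. Steps were tested on simulated data whose spread came from the 7-day array and 1-day array b (SD of their log2 difference 0.39). The 1-day pair, which sets the spread of the real test, differed with an SD of 1.43. The simulation therefore does not show what the real test can detect. Named genes were the members, 7 fixed genes, the 4 kept genes of each of 2 lists farthest beyond both 1-day arrays, and the 2 nearest genes per member probe set. Those named among neighbours, Cdkn1a, Gnb1, Calcr, Dio3, Ascl2 and the cortex markers named were chosen after their values were seen. The members and lists were chosen with earlier results of these data known. R 4.3.3, limma 3.58.1, Python 3.11.15 and matplotlib 3.10.9 were used.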

Additional observations from a re-analysis of the deposited data

How the results depend on the processing

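The count of members passing limma stayed at 0 under each alternative that allowed a test: quantile normalization, median centring, pseudocounts of 1 and 64, limma with robust = TRUE or with no trend, the filter dropped or set at the 75th percentile, and a loess trend with intensity (span 0.5) taken off. The count at least 2-fold beyond both 1-day arrays stayed at 0 where it was recomputed, and ran from 0 (without array a) to 6 (without array b) when a 1-day array was left out. Leaving out a 1-day array leaves no test and moved the 7-day difference over these ranges (log2): -0.47 to 1.13 for Dlk1, -0.90 to 2.61 for Mest, -0.29 to 1.69 for Ndn, -0.46 to 1.99 for Plagl1, -0.44 to 0.49 for Cdkn1c and -0.58 to 1.25 for Gnas 1387906_a_at. The lower end was the value without array a, except for Cdkn1c, where it was the value without array b. Dropping or raising the filter leaves each difference as it was, so values from those settings could not change sign. Counting them in, of 57 other recomputed differences from the mean of the 1-day arrays, 5 changed sign. They were Cdkn1c, at 0.02, which became -0.18 with quantile normalization and -0.37 with the trend removed, Gnas 1390263_at, at -0.41, which became 0.10 with centring, and Dlk1 and Gnas 1387906_a_at, at 0.33 and 0.34, which became -0.022 and -0.026 with the trend removed. The cause was not tested. With centring, the median difference from array b over kept probe sets was -0.18, beside 0.00 as deposited. Cdkn1c at 7 days then read above both 1-day arrays, so its reverse order was lost under that scaling. No paired analysis was possible because the groups share only replicate letter a. With 3 arrays, precision is low throughout.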

Other observations

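Sgce, Nap1l5 and Nnat, all expressed from the paternal copy in the mouse, took the order of Dlk1, Mest, Ndn and Plagl1 over the arrays, and all the genes of this paragraph were picked after their values were seen. Rasgrf1 and Usp29, also expressed from the paternal copy in the mouse, did not, and read highest on 1-day array a and lowest at 7 days, and Mcts2 read above both 1-day arrays. Igf2r, maternally expressed in the mouse, took the order as well, with 7858 on the 7-day array, against 5310 and 8395. So did Dcn, Ddc, Commd1, Osbpl5, Blcap, Axl, Inpp5f, Casd1 and the brightest probe set of Grb10. A link of the order with the parental copy was not tested. Sgce, a sarcoglycan gene, had an intensity of 3494 on the 7-day array, against 2594 on 1-day array a and 4885 on 1-day array b. Nap1l5 had 22362, against 11584 and 29367, and Nnat, which encodes neuronatin, a small membrane protein of endocrine and nerve cells, had 45587, against 32865 and 51929. Against 1-day array b the log2 differences were -0.48, -0.39 and -0.19, and 0 of the 3 passed in limma. Of the 27 kept genes of the list, each by its brightest probe set, 13 took this order, against 24.7% of all kept probe sets. The 2 sets are not matched for intensity.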
